A study of Mus musculus with 12 samples.

Results

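Prolonged exposure to insulin, 24 h, was compared with early exposure, 4 h, across the mouse microRNAs of a NanoString panel. The comparison used the 6 insulin-treated libraries of 12 in all, 3 at each time, and every probe of the panel's mouse miRNA class, 566 in number. All libraries came from mHypoE-46, an immortalised neuronal line made from embryonic mouse hypothalamus and, per its labels, expressing both neuropeptide Y and agouti-related peptide. It is 1 cell line, kept in medium with 5.5 mM glucose and 5% serum in every group. Treated cells received 100 nM insulin. The 6 vehicle libraries, 3 at each time, received phosphate buffered saline and were harvested at the same 4 h and 24 h. The study's stated purpose was to compare cells before and after they become resistant to insulin. The deposited design describes 3 independent repeats of the experiment.

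A microRNA (miRNA) is a short RNA that guides an Argonaute protein to messenger RNAs, mostly through bases 2 to 8 at its 5′ end, called the seed. miRNAs with the same seed share many predicted targets and form a family. In hypothalamic neurons that make neuropeptide Y and agouti-related peptide, insulin acts through its receptor, insulin receptor substrates and AKT, and lowers the drive to eat. Long exposure to a high insulin level blunts that pathway in cultured cells. Several miRNA families, among them miR-29, miR-26 and miR-143/145, are known from liver, fat or beta cells to target its components.

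The time groups also differed in where they were measured. Per the file headers, all 4 h libraries lay in lanes 1 to 6 and all 24 h libraries in lanes 7 to 12. Time and lane block therefore cannot be told apart in any difference given here. Within each time, lane order also followed the replicate number. Counts of mouse miRNA probes summed to 171622 to 210310 in the insulin 4 h libraries and to 142491 to 379809 in the insulin 24 h libraries. A probe was taken as detected in a library when its count exceeded that library's mean negative control plus 2 SD, a limit of 50.8 to 89.0 counts at 4 h and 38.9 to 124 counts at 24 h. Between 151 and 195 mouse probes passed it at 4 h, and between 130 and 169 at 24 h. Probes above the limit in at least 3 of the 12 libraries were tested, which left 195. The tests were edgeR quasi-likelihood tests, with Benjamini-Hochberg adjustment over these 195, and a miRNA was called when its adjusted p lay under 0.05. Levels are CPM, counts divided by the library's total over the tested miRNAs after TMM scaling, which assumes that most miRNAs do not differ. Probes differ in efficiency, so an order of miRNAs by CPM is an order of probe signal.

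Of the 195 tested miRNAs, 7 were called between 24 h and 4 h of insulin, which is 3.59%. The probe for miR-20a and miR-20b, miR-29c and miR-804 rose (3, or 1.54% of those tested). miR-26a, miR-335-3p, miR-223 and miR-345-3p fell (4, or 2.05%). The rises lay between 1.70-fold and 1.98-fold, and the falls between 1.70-fold and 7.45-fold. Over all tested miRNAs the median log2 difference was 0.06, and 114 of 195 lay above 0. An unadjusted p under 0.05 was reached by 40 miRNAs, 20.5% of those tested. The count of calls rested on single libraries. It was 0 without insulin 4 h replicate 1, insulin 4 h replicate 2, insulin 24 h replicate 2, vehicle 24 h replicate 2 or vehicle 24 h replicate 3, each left out alone. It was 1 without insulin 24 h replicate 3, 3 without vehicle 4 h replicate 1 or replicate 2, and 4 without vehicle 24 h replicate 1. It was 11 without insulin 4 h replicate 3 and 22 without insulin 24 h replicate 1. DESeq2 called 22 miRNAs, 11.3% of those tested, and these included all 7. The balance of directions rested on the scaling: with scaling to the 4 housekeeping mRNAs 0 were called higher and 16 lower, and the 3 rises lost their call, and with scaling to positive controls 0 were called higher and 2 lower.

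The mature sequences of the 7 called miRNAs are shown because the comparison turns on them, with the seed in capitals, 5′ to 3′. Sequences and positions are those of RefSeq on mouse build GRCm38.p6.
miR-26a-5p: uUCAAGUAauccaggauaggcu
miR-20a-5p: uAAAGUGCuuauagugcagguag
miR-20b-5p: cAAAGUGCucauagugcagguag
miR-29c-3p: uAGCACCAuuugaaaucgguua
miR-804: uGUGAGUUguuccucaccugga
miR-335-3p: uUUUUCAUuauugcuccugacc
miR-223-3p: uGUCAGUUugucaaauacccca
miR-345-3p: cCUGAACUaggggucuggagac
The file's plain names miR-26a, miR-29c and miR-223 were read as the major arm of each hairpin, by name. These 8 sequences hold 7 different seeds, and miR-20a and miR-20b share theirs.

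Most of these loci lie inside other genes. miR-26a is made from a pair of loci, chr9:119031811-119031832 on the plus strand within Ctdspl and chr10:126995543-126995564 on the plus strand within Ctdsp2. Both host genes encode small C-terminal domain phosphatases. miR-20a lies at chr14:115044183-115044205 (plus strand) in the miR-17-92 cluster, and miR-20b at chrX:52742159-52742181 (minus strand) in the paralogous miR-106a-363 cluster. miR-29c lies at chr1:195037600-195037621 on the plus strand within the long non-coding RNA A330023F24Rik. miR-335-3p lies at chr6:30741354-30741375 on the plus strand within Mest, an imprinted gene expressed from the paternal copy. miR-223 lies at chrX:96242884-96242905 (plus strand) within F630028O10Rik. miR-345-3p lies at chr12:108837027-108837048 (plus strand), with no overlapping gene in the table used. miR-804 lies at chr11:50357799-50357820 (minus strand), overlapping Cby3.

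miR-26a is a broadly expressed miRNA reported in mouse liver to act on insulin signalling. Its level in the insulin 4 h libraries was 2127, 1844 and 1749 CPM in replicates 1 to 3. At 24 h of insulin it was 821, 1075 and 1135 CPM. All 3 of the later libraries lay below all 3 of the earlier ones. The mean fell from 1906 ± 197 to 1010 ± 166 CPM (SD, n = 3 each), a log2 change of -0.91 with a standard error (SE) of 0.18 and an edgeR adjusted p of 0.0254. miR-26a lost its call without insulin 4 h replicate 1, insulin 4 h replicate 2, insulin 24 h replicate 2, vehicle 24 h replicate 2 or vehicle 24 h replicate 3. Over all 31 alternative settings its log2 change ran from -1.48 to -0.70 and its adjusted p from 6.38e-06 to 0.247.

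miR-26b carries the same seed as miR-26a and is encoded within Ctdsp1, another phosphatase gene of that family.
miR-26b-5p: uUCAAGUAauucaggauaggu
Its level was 1113, 1151 and 1224 CPM at 4 h of insulin and 1131, 1663 and 1674 CPM at 24 h. The groups overlapped, and the log2 difference of 0.37 (SE 0.18) had an edgeR adjusted p of 0.258. The log2 ratio of miR-26a to miR-26b counts is taken within each lane, so no scaling enters it. It was 0.93, 0.68 and 0.52 at 4 h of insulin, and -0.46, -0.63 and -0.56 at 24 h. The mean ratio moved from 0.71 ± 0.21 to -0.55 ± 0.085 (SD, n = 3 each), a difference of -1.26. With 3 libraries against 3, a two-sided exact permutation test cannot go below 0.1, and this comparison gave 0.1. In vehicle the same ratio differed by -0.43 between the times, also with no overlap (exact p = 0.1). Background subtraction took the insulin difference to -1.50.

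The probe for miR-20a and miR-20b reads a pair of miRNAs of the miR-17 family, which promotes passage through the cell cycle. Its level was 5846, 5890 and 5968 CPM at 4 h of insulin and 8392, 15400 and 11228 CPM at 24 h. All later libraries were above all earlier ones, and the 24 h libraries were far more spread. The mean rose from 5901 ± 62.2 to 11673 ± 3525 CPM (SD, n = 3 each), a log2 change of 0.99 (SE 0.21, edgeR adjusted p = 0.0351). The call was lost without insulin 4 h replicate 1 or 2, insulin 24 h replicate 2 or 3, or vehicle 24 h replicate 2 or 3. Housekeeping scaling lowered the change to 0.39 and ended the call, and over the 31 alternatives the adjusted p ran from 0.000265 to 0.532.

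Other members of the AAAGUGC seed family were measured by 3 further probes.
miR-17-5p: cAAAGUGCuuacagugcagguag
miR-106a-5p: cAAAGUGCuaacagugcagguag
miR-93-5p: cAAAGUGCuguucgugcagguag
miR-106b-5p: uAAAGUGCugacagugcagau
The probe for miR-106a and miR-17 gave 10174, 13826 and 17308 CPM at 4 h of insulin and 24106, 29399 and 20887 CPM at 24 h. The groups did not overlap, but the log2 difference of 0.85 (SE 0.25) had an edgeR adjusted p of 0.0752. The corresponding differences were 0.53 for miR-93 and 0.15 for miR-106b, which sit together within Mcm7, a replication helicase gene; neither was called. All 4 family probes thus lay above 0, with a median of 0.69, beside 0.06 over all tested miRNAs. In vehicle 4 of 4 also lay above 0, with a median of 0.50. With housekeeping scaling 2 of the 4 lay above 0 in insulin. A slope with lane number at 4 h, described further on, was called for 3 of the 4 probes. The log2 ratio of the miR-20a and miR-20b probe to the miR-106a and miR-17 probe differed by 0.07 between the insulin times, with overlapping groups (exact p = 0.9, n = 3 each). Near-identical sequences can share signal on such probes, and this was not tested.

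miR-29c belongs to the miR-29 family, which targets collagen mRNAs and, in mouse liver and fat cells, components of insulin signalling. Its level was 1498, 1637 and 2167 CPM at 4 h of insulin and 2438, 3529 and 2998 CPM at 24 h. The groups did not overlap. The mean rose from 1767 ± 353 to 2988 ± 546 CPM (SD, n = 3 each), a log2 change of 0.76 (SE 0.20, edgeR adjusted p = 0.0469). miR-29c kept its call in 10 of 31 alternatives, among them DESeq2, and with housekeeping scaling the change was 0.18.

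The other members of the family share the AGCACCA seed.
miR-29a-3p: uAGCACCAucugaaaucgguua
miR-29b-3p: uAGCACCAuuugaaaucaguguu
miR-29b was the third most abundant miRNA by mean CPM in the insulin libraries. It gave 20567, 36935 and 53400 CPM at 4 h of insulin and 70746, 94699 and 79451 CPM at 24 h. Although all later libraries were higher, the earlier ones were widely spread, and the log2 difference of 1.14 (SE 0.37) had an edgeR adjusted p of 0.0872. miR-29a gave 27655, 39005 and 38317 CPM at 4 h and 58255, 42458 and 33918 CPM at 24 h, a log2 difference of 0.36 (SE 0.23, edgeR adjusted p = 0.461). Within lanes the log2 ratio of miR-29c to miR-29a differed by 0.42 and that of miR-29b to miR-29a by 0.90, with overlapping groups in both (exact p = 0.4 and 0.2, n = 3 each).

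miR-335-3p is the arm of the Mest hairpin opposite to miR-335-5p. Its level was 904, 742 and 770 CPM at 4 h of insulin and 318, 497 and 572 CPM at 24 h. The groups did not overlap, and insulin 24 h replicate 1 was the lowest library and below its detection limit. The mean fell from 805 ± 86.2 to 462 ± 130 CPM (SD, n = 3 each), a log2 change of -0.77 (SE 0.20, edgeR adjusted p = 0.0469), and the call held in 10 of 31 alternatives. miR-335-5p gave 260, 452 and 716 CPM at 4 h and 442, 468 and 420 CPM at 24 h, with complete overlap. The log2 ratio of the 3p to the 5p arm differed by -0.85, also with overlap (exact p = 0.2, n = 3 each).

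miR-345-3p is the arm opposite to miR-345-5p. Its level was 1862, 1539 and 1313 CPM at 4 h of insulin and 1095, 685 and 618 CPM at 24 h. No 24 h library reached the lowest 4 h library. The mean fell from 1571 ± 276 to 799 ± 258 CPM (SD, n = 3 each), a log2 change of -0.998 (SE 0.26, edgeR adjusted p = 0.0469), and the call held in 13 of 31 alternatives. The level also fell with lane number among the 24 h libraries, by 0.22 log2 units per lane (edgeR adjusted p = 0.0408). miR-345-5p lay at 464, 393 and 298 CPM at 4 h and 336, 390 and 434 CPM at 24 h, above the detection limit in 2 of the 3 earlier libraries and 0 of the 3 later ones. The log2 ratio of the 3p to the 5p arm differed by -1.03 with no overlap (exact p = 0.1, n = 3 each). After background subtraction the ratio's groups overlapped (exact p = 0.3).

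miR-223 is known as a miRNA of myeloid blood cells and platelets, and has also been reported in neurons and in insulin resistance of heart and fat. Its level was 3045, 2444 and 1528 CPM at 4 h of insulin and 689, 216 and 115 CPM at 24 h. The groups did not overlap, and the last 2 of these values lay below the mean of the negative controls on the same scale, 219 and 254 CPM in those libraries. The mean fell from 2339 ± 764 to 340 ± 306 CPM (SD, n = 3 each), a log2 change of -2.90 (SE 0.74, edgeR adjusted p = 0.0469). Since 1 of 3 libraries at 24 h passed its detection limit, the size of this fold is set in part by background. Background subtraction took the log2 change to -4.06, but left no signal in the 2 libraries below the negative control mean. That value is therefore not a measured fold. miR-223 held its call in 17 of 31 alternatives. It had the widest spread of the called miRNAs, also among vehicle 4 h libraries, at 582, 4809 and 2409 CPM.

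miR-804 was the called miRNA with the lowest signal, and no function is given for it here. Its counts ran from 50 to 177 in the insulin libraries. Its level was 434, 315 and 316 CPM at 4 h of insulin and 442, 628 and 724 CPM at 24 h. The groups did not overlap by a narrow margin. The mean rose from 355 ± 68.6 to 598 ± 144 CPM (SD, n = 3 each), a log2 change of 0.77 (SE 0.20, edgeR adjusted p = 0.0469), and the call held in 7 of 30 alternatives. With housekeeping scaling the change was 0.17, and the call was lost. Its count exceeded the detection limit in 1 of the 3 earlier libraries and in all 3 later ones. On the same scale the negative control probes averaged 0.25 log2 units higher at 24 h of insulin, and their part in this rise was not tested.

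miR-29c, miR-335-3p, miR-345-3p, miR-223 and miR-804 each lost their call without insulin 4 h replicate 1 or 2, insulin 24 h replicate 2 or 3, or vehicle 24 h replicate 2 or 3. All but miR-223 also lost it without vehicle 4 h replicate 1 or 2. miR-29c, miR-335-3p and miR-804 lost it without vehicle 24 h replicate 1, and miR-804 without insulin 4 h replicate 3 as well. No call changed direction in any of the 31 alternatives.

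**Figure D1:**
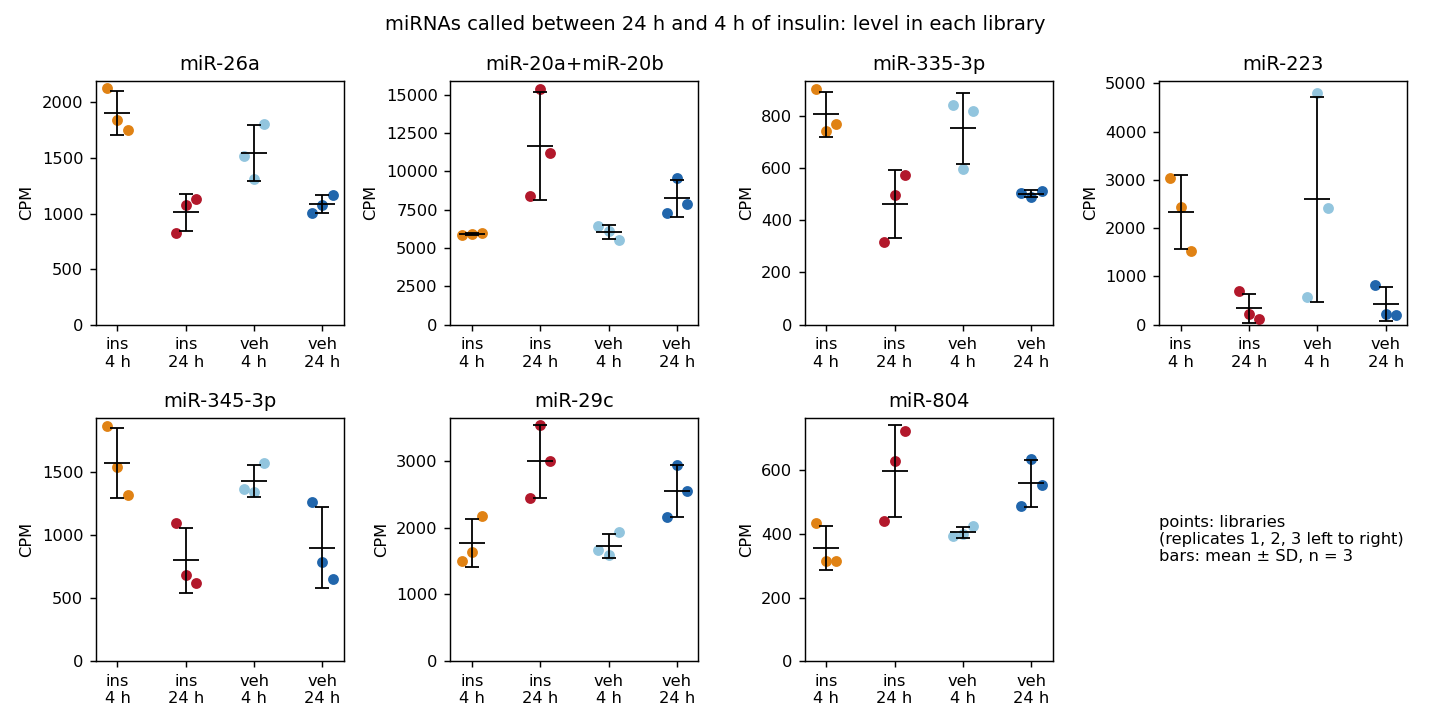
Level in CPM (vertical axis, from 0) of each called miRNA in the 4 groups of 3 libraries; points are libraries, bars are the mean ± SD. The insulin 4 h and 24 h points do not overlap in any of the 7 panels, and the vehicle points differ in the same direction.

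**Figure D2:**
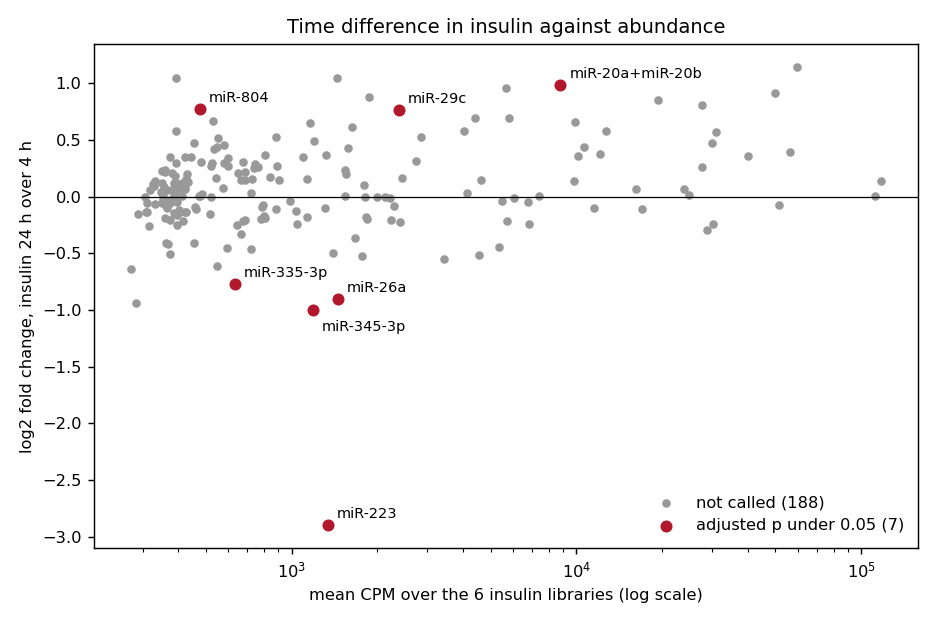
Log2 difference between 24 h and 4 h of insulin (vertical axis) against mean CPM over the 6 insulin libraries (horizontal log axis) for the 195 tested miRNAs, with the 7 called in red. miR-223 stands apart at -2.90; the other called miRNAs lie between -0.998 and 0.99.

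The vehicle libraries carry the same time and lane difference without added insulin. There, 0 of 195 miRNAs were called by edgeR (0.0%), with a smallest adjusted p of 0.143. An unadjusted p under 0.05 was reached by 31 in vehicle (15.9%), DESeq2 called 18 (9.23%), and edgeR without vehicle 4 h replicate 3 called 12. The vehicle count was also 9 with scaling to the 100 most abundant miRNAs, 7 with a mean count of at least 100 and 22 with the lane number in the model. All 7 miRNAs called in insulin had a vehicle difference of the same sign and of smaller size. The 7 were picked for their insulin difference, so the order of sizes is a description only. Over all 195 miRNAs the sign was the same for 141, and the size was larger in insulin for 92. Among the 20 miRNAs next by p in insulin, 4 had the larger size in vehicle. Those 20 were likewise picked for their insulin difference, so that count is also a description only. Uncalled miRNAs chosen here as larger in vehicle were miR-29b, with 1.36 in vehicle and 1.14 in insulin, and miR-221, with 0.69 and 0.58. So were let-7e, with 0.78 and 0.66, and miR-322, with 1.16 and 0.88. In vehicle the log2 differences were -0.51 for miR-26a, 0.45 for the miR-20a and miR-20b probe, 0.56 for miR-29c and 0.46 for miR-804. They were -0.58 for miR-335-3p, -2.67 for miR-223 and -0.68 for miR-345-3p. The vehicle groups did not overlap for 6 of these 7, the exception being miR-223, beside 51 of all 195 tested (26.2%).

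The difference between the insulin and vehicle time effects was tested directly as an interaction. No miRNA was called (0 of 195, 0.0%), the smallest edgeR adjusted p was 0.991, none reached an unadjusted p under 0.05, and DESeq2 also called 0. Deviations of same-numbered insulin and vehicle libraries correlated over 0.1 in all 3 pairs at 24 h and in 2 of 3 at 4 h. The model leaves this shared part in its spread, which works against a call in the interaction. For the 7 called miRNAs the unadjusted edgeR p of the interaction ran from 0.0953 to 0.819. The lowest of these belonged to the miR-20a and miR-20b probe, whose time difference was 0.54 log2 units larger in insulin (SE 0.30, 95% interval -0.11 to 1.18, edgeR adjusted p = 0.991). For miR-26a the extra fall was -0.40 (SE 0.25, interval -0.93 to 0.13) and for miR-26b the difference was 0.43 (SE 0.25, interval -0.11 to 0.96). miR-378, with 0.39, and miR-490, with -0.47, had the smallest interaction p in each direction and were not called. The widest of these point estimates over all tested miRNAs was 0.72, for miR-185. The 95% interval of the interaction lay within a 2-fold range for 146 of the 195 miRNAs and within a 1.5-fold range for 15. So differences in time course between insulin and vehicle larger than 2-fold were outside the interval for most miRNAs. For most miRNAs the interval also reached beyond the 1.5-fold range. Whether a difference of 1.5-fold would have been called with 3 libraries per group was not tested.

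**Figure D3:**
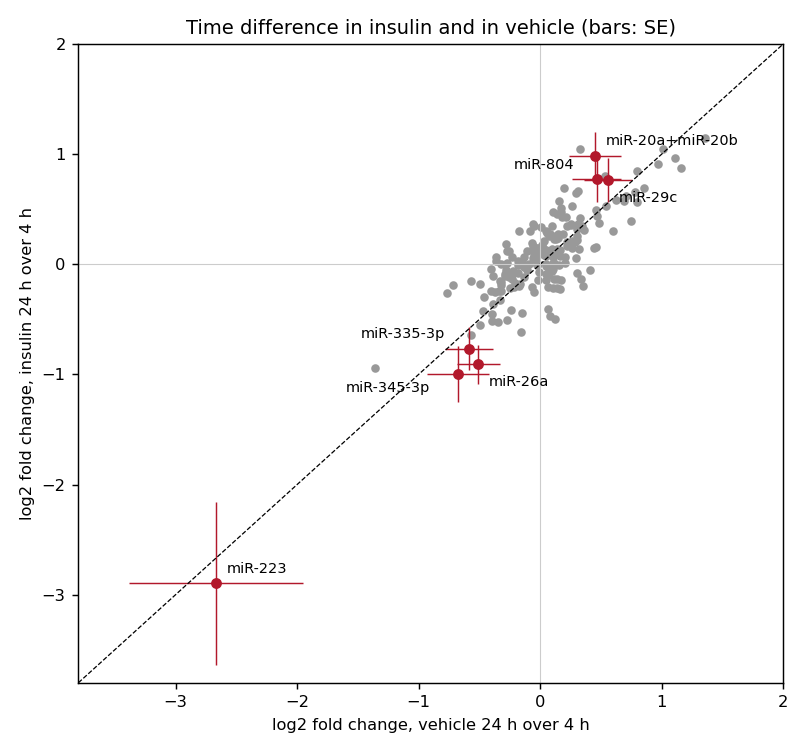
Log2 difference between 24 h and 4 h in insulin (vertical axis) against that in vehicle (horizontal axis) for the 195 tested miRNAs; the 7 called in insulin are red with SE bars, and the dashed line marks equal values. All 7 lie in the quadrants of equal sign, farther from 0 on the insulin axis, and miR-223 lies at -2.90 and -2.67.

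Beyond the called miRNAs, 37 of the 195 (19.0%) had insulin groups that did not overlap, 20 higher at 24 h (10.3%) and 17 lower (8.72%). In vehicle 51 did not overlap (26.2%). In both treatments at once, 12 were higher at 24 h and 11 lower, and 0 lay on opposite sides.

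Next after the called miRNAs by p among those higher at 24 h of insulin came miR-1983, miR-185 and miR-350. miR-1983 is a miRNA reported in mouse hypothalamic cells to target the insulin receptor.
miR-1983: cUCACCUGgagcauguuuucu
It gave 369, 398 and 472 CPM at 4 h of insulin and 539, 816 and 581 CPM at 24 h. The groups did not overlap, and the log2 difference of 0.67 (SE 0.19) had an edgeR adjusted p of 0.0752. In vehicle the libraries gave 304, 399 and 384 CPM at 4 h and 457, 474 and 419 CPM at 24 h, a log2 difference of 0.31, and the interaction had an unadjusted edgeR p of 0.211. Its counts lay between 61 and 230 in insulin, with 2 of 3 earlier and all 3 later libraries above the detection limit. With housekeeping scaling the insulin difference was 0.06.

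miR-185 had a log2 difference of 1.05 (SE 0.30) and miR-350 of 0.65 (SE 0.19), both with an edgeR adjusted p of 0.0752. Only 1 of the 3 earlier and 2 of the 3 later libraries held miR-185 above the detection limit. miR-296-5p, at 1.05, and miR-221, at 0.58, followed with an adjusted p of 0.0872 each, and miR-709, at 0.43, with 0.0965. miR-221 and its cluster partner miR-222 (0.49), which restrain the cell cycle inhibitor p27, lay on the same side of 0.

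Among those lower at 24 h of insulin and not called, miR-96 gave 1782, 2232 and 2244 CPM at 4 h and 1590, 1383 and 1375 CPM at 24 h. Its groups did not overlap, and its log2 difference was -0.53 (SE 0.16, edgeR adjusted p = 0.0868). miR-183, from the same sensory-neuron and epithelial cluster, had -0.45 (adjusted p = 0.162). miR-145, a smooth muscle miRNA reported to act on insulin receptor substrate 1, gave 3559, 4450 and 4226 CPM at 4 h and 3100, 2887 and 2366 CPM at 24 h. Those groups also did not overlap, with a log2 difference of -0.55 (SE 0.17, edgeR adjusted p = 0.0872). miR-3471 had -0.61, miR-140 had -0.52, miR-30b had -0.44, miR-33, which targets a cholesterol exporter, had -0.41, and miR-23b had -0.36; their adjusted p lay between 0.14 and 0.183.

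Families with shared seeds and other lists were described by their members' counts, with no test of the family. Each count called is to be read against the 3.59% called over all 195, at which 0 called in so short a list is no result about its members. All 9 probes of the let-7 and miR-98 family, which share the seed GAGGUAG and restrain growth genes such as Lin28 and Ras, were tested. None was called (0 of 9, beside 3.59% overall), 7 of 9 lay above 0, and the median was 0.56 in insulin and 0.53 in vehicle. let-7d had the smallest p, at 14477, 21364 and 24668 CPM at 4 h of insulin and 26641, 46427 and 32506 CPM at 24 h, a log2 difference of 0.80 (SE 0.26, edgeR adjusted p = 0.0955). miR-98 and let-7e followed at 0.69 and 0.66. The summed level of the 9 probes ran from 97407 to 213652 CPM at 4 h and from 172052 to 240365 CPM at 24 h, so it overlapped. With housekeeping scaling 5 of the 9 lay above 0.

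In the miR-15/16 family (seed AGCAGCA), which restrains cyclins, 5 probes were tested and 0 called, beside 3.59% of all tested. miR-16 had a log2 difference of 0.91 and miR-322 of 0.88, while miR-15b, miR-15a and miR-497 lay nearer 0, the last 2 below it. The median of the 5 was 0.26 in insulin and 0.30 in vehicle. In the miR-23, miR-27 and miR-24 clusters 0 of 5 were called, and 2 of 5 lay above 0. miR-23b at -0.36 and miR-23a at 0.36 lay on opposite sides of 0. In the miR-30 family 0 of 5 were called, with miR-30b at -0.44 and miR-30d at 0.43. In the miR-125 and miR-99/100 families 0 of 5 were called, and their median was 0.03, with miR-125a-5p at 0.47 (edgeR adjusted p = 0.183).

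miRNAs reported elsewhere to regulate insulin signalling made up a list of 23 panel probes, of which 18 were tested. The list was drawn up with earlier results of these samples known, and miR-1983 is on it because of work in this cell line, so its counts are no independent evidence. In it, 1 rose (miR-29c) and 2 fell (miR-26a and miR-223), 3 of 18 called beside 3.59% over all tested miRNAs. Of the 18, 10 lay above 0, and the median was 0.01. Members that were not called included miR-126-3p at -0.42 and miR-7a, a regulator of insulin secretion in mouse islets, at 0.35. miR-122, miR-320, miR-375, miR-7b and miR-802 were not tested because they did not pass the filter.

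Of 14 probes for neuron-enriched miRNAs, 7 passed the filter and 0 were called, beside 3.59% overall. miR-9, a miRNA of neural progenitors and neurons, gave 5721, 7665 and 7252 CPM at 4 h and 7764, 6796 and 5388 CPM at 24 h. Its groups overlapped. miR-132, which responds to activity through CREB, had a log2 difference of 0.51 (edgeR adjusted p = 0.168), and miR-218 had 0.34. miR-124, the most neuron-specific of the list, and miR-137 and miR-138 did not pass the filter, whereas miR-9, miR-128, miR-132, miR-153 and miR-218 did. The list of miRNAs that respond to stimuli had 10 tested members, 0 called and a median of 0.24.

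Markers of other cell types were also counted. Over all 566 mouse probes 34.5% passed the filter, and the pass counts of these lists are to be read beside that share. Of 15 blood, endothelial, liver and muscle probes 4 passed the filter, and 1, miR-223, was called, beside 3.59% overall. The other blood markers miR-142-3p, miR-144, miR-150 and miR-451 did not pass it, nor did miR-122 of liver. The summed level of the 4 tested probes ran from 2632 to 4108 CPM at 4 h of insulin and from 1528 to 1706 CPM at 24 h. That difference was carried by miR-223: of the 4, 2 lay above 0 and the median was 0.03, and without miR-223 the other 3 summed to 1063, 1229 and 1104 CPM at 4 h and to 839, 1490 and 1578 CPM at 24 h, with overlap. Of 10 epithelial probes 4 passed, with 0 called and sums of 3899 to 3978 CPM at 4 h and 3201 to 3274 CPM at 24 h. Of 10 glial and mesenchymal probes 3 passed, with 0 called and sums of 6100 to 7586 CPM at 4 h and 4825 to 6033 CPM at 24 h. The members went both ways: 2 of the 4 epithelial probes lay above 0 (miR-200b and miR-200c) and 2 below (miR-96 and miR-183), and 1 of the 3 glial and mesenchymal probes lay above 0 (miR-338-5p) and 2 below (miR-143 and miR-145). With housekeeping scaling all 7 of these lay below 0. The 3 sums with miR-223 included did not overlap between the insulin times. Their part in the results was not tested. In bulk RNA, fewer cells of a type and less RNA per cell cannot be told apart.

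Of the 50 probes for the imprinted Dlk1-Dio3 cluster 12 were tested, 0 were called and the median was -0.05. Of the 20 for the Sfmbt2 intronic families 5 were tested and 0 called, with miR-297c lowest at -0.50. Both probes for tRNA fragments, miR-720 and miR-1274a, were tested and not called. The miR-26, miR-181 and miR-17-92 lists had medians of -0.27, 0.02 and 0.30, with 2, 2 and 8 tested members.

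**Figure D4:**
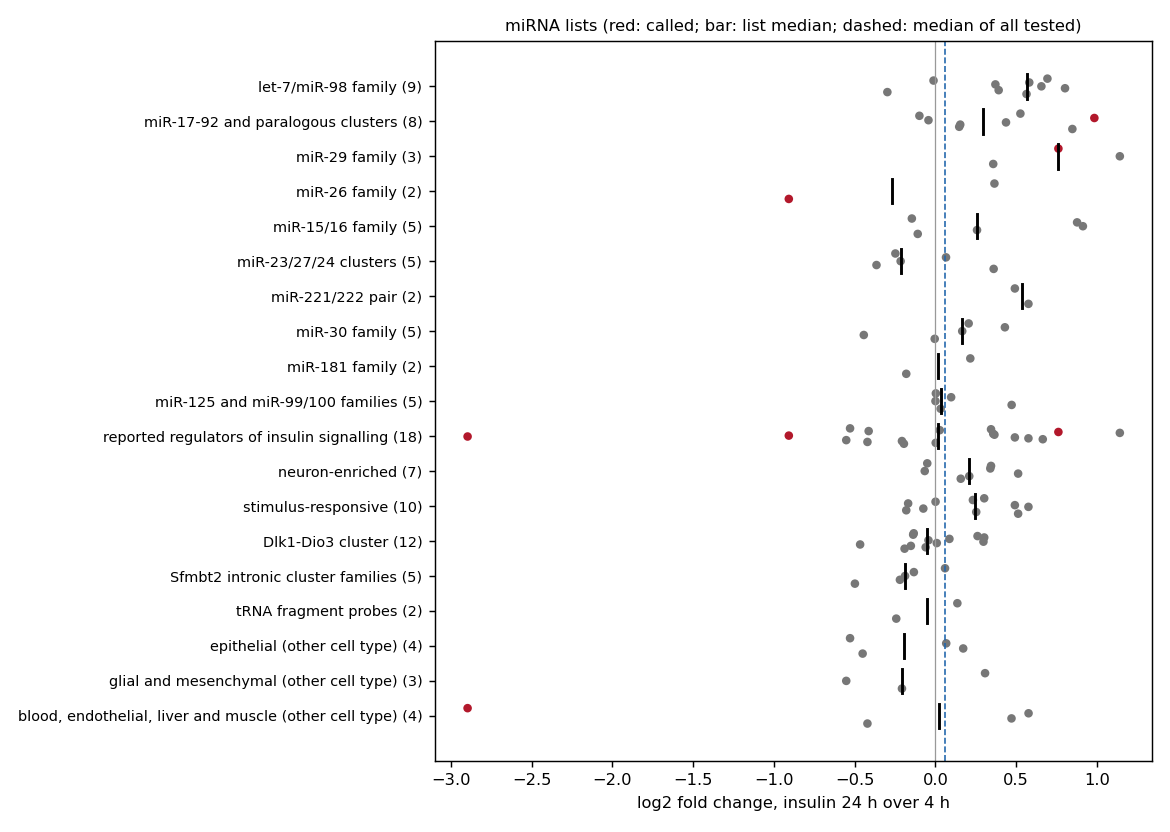
Log2 difference between 24 h and 4 h of insulin (horizontal axis) for the tested members of each list (rows, number tested in brackets); red points were called, black bars are list medians and the dashed line is the median of all 195, 0.06. The let-7, miR-29 and miR-221 with miR-222 medians lie at 0.53 or above, and the miR-26 pair is split between -0.91 and 0.37.

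Within the 4 h lanes many miRNAs differed by lane. A slope of log2 level on lane number, fitted over the 6 libraries of each time within the edgeR model, was called for 30 of 195 miRNAs (15.4%) at 4 h. Of these 28 rose with lane (14.4%) and 2 fell (1.03%). At 24 h 2 were called (1.03%), miR-345-3p and miR-876-5p, and both fell. In lane order miR-29b gave 16415, 20567, 26820, 36935, 47631 and 53400 CPM at 4 h, vehicle and insulin lanes alternating, and then 66828, 70746, 85175, 94699, 81055 and 79451 CPM at 24 h. Each 4 h lane was higher than the lane before it, whichever treatment it held, a slope of 0.36 log2 units per lane (edgeR adjusted p = 3.3e-05). miR-322 rose by 0.45 per lane, let-7a by 0.49, let-7c by 0.41 and miR-16 by 0.39. The probe for miR-106a and miR-17 rose by 0.20 per lane.

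Of the 28 miRNAs that rose with lane at 4 h, 24 lay above 0 in the comparison of insulin times, with a median of 0.47. Over all tested miRNAs 114 of 195 lay above 0, with a median of 0.06. Of the 28, 0 were called, beside 3.59% of all tested. Of the 7 called miRNAs 0 had a called slope at 4 h, beside 15.4% of all tested. At 24 h 1 of them, miR-345-3p, had one, beside 1.03%. A slope across lanes widens the spread within a time group, which works against a call between the times. These counts therefore cannot tell a lane difference from a time difference. Slopes at 4 h were 0.00 for miR-26a, -0.02 for the miR-20a and miR-20b probe and 0.09 for miR-29c. With the lane number added as a slope within each time, an alternative added after the data were seen, 37 miRNAs were called in insulin, 22 in vehicle and 0 in the interaction. All 7 miRNAs named as called stayed called there. The slope is centred within each time, so the step between the lane blocks stays in the time difference. Lane order and replicate number run together within each time and cannot be told apart.

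**Figure D5:**
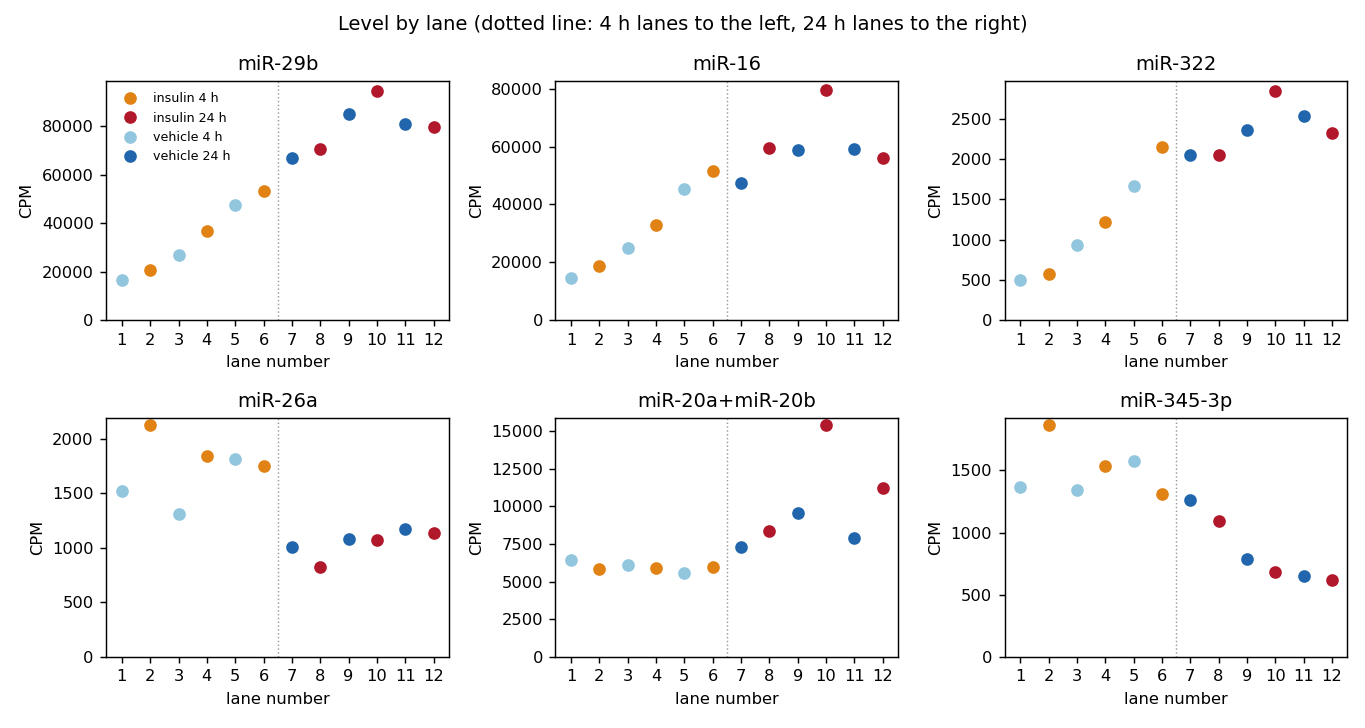
Level in CPM (vertical axis, from 0) against lane number (horizontal axis) for 6 miRNAs; each point is 1 library, coloured by group, and the dotted line parts the 4 h lanes from the 24 h lanes. miR-29b, miR-16 and miR-322 climb through lanes 1 to 6, and miR-345-3p falls through lanes 7 to 12. All 24 h points of miR-26a lie below its 4 h points. Those of the miR-20a and miR-20b probe lie above its 4 h points and are widely spread.

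The most abundant miRNAs were largely shared by both times: 7 of the 10 with the highest mean CPM at 4 h of insulin were among the 10 highest at 24 h. miR-125b-5p, a neural and growth-related miRNA, gave 94252, 119597 and 121613 CPM at 4 h and 135096, 119112 and 81466 CPM at 24 h, with overlap. The probe miR-720, which reads a tRNA fragment, gave 94527, 102418 and 138348 CPM at 4 h and 113499, 151611 and 103432 CPM at 24 h. miR-21 gave 48661, 50353 and 59732 CPM at 4 h and 57381, 53638 and 39758 CPM at 24 h. The groups overlapped for each of these 3.

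The 95% interval of the insulin time difference lay within a 2-fold range for 159 of 195 miRNAs and within a 1.5-fold range for 67. Of the 566 mouse probes, 110 exceeded the detection limit in all 6 insulin libraries and 340 in 0 of 6. In all 3 libraries at 4 h and 0 of 3 at 24 h of insulin, 6 probes passed, and 0 showed the reverse, under limits that were higher in 2 of the 3 later libraries.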

How the data were processed

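Total RNA of 12 samples was read on a NanoString nCounter panel, where each probe bound to its miRNA is counted by its colour code and nothing is amplified. The raw table deposited by the authors was read as an expected count table, since instrument values in its columns are not whole; all probe values were whole, and rounding changed none. The design had assumed plain counts. The authors' deposited signal table holds, for mouse miRNA and housekeeping probes, the raw count times 1 factor per lane (largest relative gap 0.011%) and served as an alternative. Which software made it is not given in the sources.

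Counts were fitted in edgeR 4.0.16 (R 4.3.3) over 12 libraries in 4 groups, with TMM scaling, library totals over the 195 tested miRNAs (34.5% of mouse probes) and the two-sided quasi-likelihood F test. The steps were tested on simulated counts that held no lane slope, so that test does not bear on lane differences. No background was subtracted. Of 33 viral miRNA probes, which should have no target here, 5 met the same detection filter. Intervals are at 95%. Exact permutation tests over 3 against 3 libraries used scipy 1.17.1; DESeq2 1.42.0 and limma 3.58.1 served as alternatives. The named miRNAs are all those called, then those of smallest p in each direction, the most abundant, members of each list and seed or arm mates of a called miRNA. The members and lists were chosen with earlier results of these data known. The series design states independent repeats but no culture identity, so p-values measure the spread between these libraries. Replicate correlations were 0.971 to 0.993 at 4 h of insulin and 0.958 to 0.991 at 24 h.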

Additional observations from a re-analysis of the deposited data

Results flagged for a closer look

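The housekeeping mRNA probes are outside the miRNA comparison. On the CPM scale of the miRNA fit, Actb averaged 141889 CPM at 24 h of insulin and lay above all other 9 libraries, and so did Rpl19, at 42543 CPM. The margin was narrow for Actb, with 135132 CPM in its lowest insulin 24 h library and 134343 CPM in vehicle 24 h replicate 2. Vehicle 24 h replicates 1 and 3 gave 74710 and 88880 CPM. For Rpl19 the lowest insulin 24 h library gave 35814 CPM and vehicle 24 h replicate 2 gave 30445 CPM. At 4 h of insulin the means of Actb and Rpl19 were 82907 and 20396 CPM (exact permutation p = 0.1 for each, n = 3 against 3, the smallest this design allows). The other 2 such probes overlapped between the insulin times: B2m averaged 6157 CPM at 4 h and 6757 CPM at 24 h (exact p = 1), and Gapdh 11968 and 17193 CPM (exact p = 0.4, n = 3 each). Insulin 24 h replicate 1 was the lowest of the 12 libraries for both, at 3498 and 7870 CPM. Relative to positive control counts, Actb overlapped between the insulin times, and Rpl19 did not but was no longer above all other libraries.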

How the results depend on the processing

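Calls between the insulin times, 7 as reported, numbered 22 with DESeq2, 15 with scaling to the 100 most abundant miRNAs, 13 with a mean count of at least 100, and 16, all lower, with scaling to housekeeping mRNAs. They numbered 2 with positive control scaling, background subtraction, insulin libraries only, totals over all probes or robust spread, 1 with no filter, and 0 with limma on the authors' signal or TMM over all probes. TMM reference libraries gave 2 to 13. Single libraries left out gave 0 to 22. Without both insulin libraries of number 1, 2 or 3 there were 15, 0 and 0. The lane covariate gave 37. These were 29 higher and 8 lower. With a replicate block there were 18, 14 higher and 4 lower, and 10 in vehicle. Deviations of same-numbered libraries correlated over 0.1 in 8 of 18 pairs: in all 3 between insulin 24 h and vehicle 24 h (0.31 to 0.59), which lie in adjacent lanes, in 2 of 3 between the 4 h groups, in 1 of 3 between insulin 4 h and 24 h (-0.35 to 0.21) and in 0 of 3 between vehicle 4 h and 24 h. The numbers were therefore not taken as pairs of the time comparisons. In vehicle the count was also 18 with DESeq2, 9 with the 100 most abundant, 7 with the mean count filter, 1 with positive controls, 22 with the lane covariate and 0 to 12 with a library left out. The interaction had 0 calls in every alternative. The alternatives of totals or TMM over all probes, TMM reference, robust spread and lane covariate were added after the data were seen.

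Housekeeping scaling shifted the median log2 difference from 0.06 to -0.50 and reversed miR-709 (-0.098), miR-26b (-0.22), miR-93 (-0.015), miR-106b (-0.36), miR-29a (-0.10), miR-132 (-0.11), miR-7a (-0.23), miR-218 (-0.23), miR-222 (-0.041), miR-125a-5p (-0.072), miR-23a (-0.16) and miR-30d (-0.19). miR-106b also reversed with positive controls (-0.0061), without insulin 4 h replicate 1 (-0.043, in a range of -0.043 to 0.38 over single libraries left out) and without both libraries of number 1 (-0.14), where miR-29a reversed too (-0.018). The ratio of the miR-20a and miR-20b probe to the miR-106a and miR-17 probe ran from -0.10 to 0.27 with a library left out. The cause was not tested. Of 1265 values for 41 miRNAs, 1029 kept direction and side of the threshold, 122 lost a call, 98 gained one and 16 reversed. Counts near the negative controls, as for miR-804, miR-1983 and miR-223 at 24 h, limit those folds.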
